A study of Mus musculus with 12 samples.

Results

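Arc, Homer1, Nptx2 and Plk2 are genes whose transcription in neurons is driven by activity and whose products act at synapses. Their chromatin was described here in the mouse dentate gyrus, a part of the hippocampus made up largely of granule neurons. The members are all peaks of accessible chromatin that overlap 4 windows of the mm9 genome, each reaching about 50 kb to either side of 1 gene. The windows lie on chromosome 15 from 74449000 to 74553000 for Arc, on chromosome 13 from 94023000 to 94225000 for Homer1, on chromosome 5 from 145256000 to 145370000 for Nptx2 and on chromosome 13 from 111135000 to 111245000 for Plk2. They hold 245 of the 718062 peaks on chromosomes 1 to 19 and X in the 12 libraries: 93 at Arc, 52 at Homer1, 38 at Nptx2 and 62 at Plk2. The genes were chosen on the width and number of their peaks in E0, E1 and E4, with earlier results on these same lists known, so the values below are a description and carry no test.

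The assay was ATAC-seq: a transposase inserts sequencing adapters where DNA is open, and stretches rich in insertions are called as peaks. The 12 libraries came from 12 wild-type C57BL/6 mice aged 8 weeks, 1 mouse each, with 4 replicates under each of the names E0, E1 and E4. The labels do not spell out the group names. In the published study, E0 mice are unstimulated, and E1 and E4 mice were taken 1 h and 4 h after electroconvulsive stimulation, which makes granule neurons fire together. Whole dentate gyrus was dissected, so a weaker signal and a smaller share of responding cells cannot be told apart. The tissue label was not checked against marker genes, because no mm9 annotation was used.

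Stimulation of a neuron raises calcium, which activates kinases and factors already bound to DNA, such as CREB, SRF and MEF2. These switch on a first wave of genes within minutes. Some members of that wave encode further transcription factors, and others, the 4 genes here among them, encode proteins that change the synapse directly. Arc forms capsid-like particles and helps remove AMPA receptors from the synaptic membrane. Homer1 scaffolds metabotropic glutamate receptors, and activity favours a short form, Homer1a, that disrupts the scaffold. Nptx2, also called Narp, is a secreted pentraxin that clusters AMPA receptors. Plk2 is a kinase that weakens synapses after prolonged activity.

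Within each window, the part that lies more than 50 kb from both edges is called the gene interval, and distances are given from its left edge. It measures 4001 bp for Arc, 102001 bp for Homer1, 14001 bp for Nptx2 and 10001 bp for Plk2, against gene lengths of 3490, 101373, 11592 and 5801 bp in RefSeq's GRCm38 gene table. Arc is transcribed from right to left on the map and the other three from left to right. Exon and intron limits in mm9 were not used, so no peak is assigned to one. By name, the nearest protein-coding genes in the GRCm38 table are Mroh4 and Jrk beside Arc, Tent2 and Jmy beside Homer1, Baiap2l1 and Gm52796 beside Nptx2, and Gapt and Actbl2 beside Plk2.

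RefSeq's promoter table (GRCm38.p6) held entries for Homer1 and Plk2 among the 4 genes. The 250 bases before the gene's start are shown for both, on the forward strand, because a peak stood at the left end of both gene intervals in every library. Capitals mark the full cAMP response element TGACGTCA and its core TGACG, which are bound by CREB.
Homer1: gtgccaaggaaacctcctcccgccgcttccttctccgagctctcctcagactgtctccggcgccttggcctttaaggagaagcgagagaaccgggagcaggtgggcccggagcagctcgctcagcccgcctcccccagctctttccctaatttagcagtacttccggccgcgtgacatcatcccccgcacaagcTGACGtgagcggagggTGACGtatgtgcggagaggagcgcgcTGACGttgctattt
Plk2: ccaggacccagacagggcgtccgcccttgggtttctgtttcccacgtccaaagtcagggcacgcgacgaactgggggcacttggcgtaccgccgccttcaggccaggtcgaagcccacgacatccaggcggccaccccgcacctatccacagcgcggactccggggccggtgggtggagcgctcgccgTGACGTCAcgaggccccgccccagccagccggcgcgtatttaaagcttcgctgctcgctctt

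The Plk2 promoter holds 1 full element, from base -62 to base -55 before the start, a sequence found in 1.55% of the 32851 promoters of the table searched over the same length on both strands. The element reads the same on both strands, so the core TGACG lies in it on either strand. The Homer1 promoter holds no full element and 3 copies of the core, beginning at bases -56, -40 and -14. The core alone is common and occurs in 17.8% of promoters. A second Homer1 start in the table has neither. None of these promoters holds the AP-1 site TGAGTCA (or TGACTCA), the EGR site GCGTGGGCG (or GCGGGGGCG), TATAAA, a CArG box or a MEF2 site in these letters, against 4.46%, 3.06%, 12.4%, 1.47% and 2.92% of all promoters. These matches are letters in a window and were not tied to the peaks.

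The peak lists differ in length and in how wide their peaks are, and both bear on the values below. E0 lists held 36861 to 77130 peaks, E1 lists 64152 to 84776 and E4 lists 24426 to 104120. E4 replicate 1 stands apart, with 104120 peaks covering 59.5 Mb, against 24426 to 34863 peaks and at most 12.7 Mb in the other three E4 libraries. Peaks over 2000 bp made up 1.72% of its list, at most 0.0545% of the other E4 lists, 0.0488 to 1.08% of E0 lists and 0.0624 to 1.07% of E1 lists. The part that these differences play in the results was not tested, and results on E4 are given with and without that library. Read depth is unknown, and a place without a peak was not called there, which does not make it closed.

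Arc showed the plainest difference between the groups. In E0 a single short peak overlapped the gene interval, at its right end, where Arc starts, and in E1 peaks covered nearly the whole gene. The E0 peak measured 507, 890, 446 and 491 bp in replicates 1 to 4. The widest peak over the interval measured 5725, 5800, 4457 and 3701 bp in E1 replicates 1 to 4. Every E1 value was thus more than 4 times the highest E0 value. In E1 replicates 1 and 2 a single peak spanned the interval, from -1258 to 4466 bp and from -1270 to 4529 bp. In E1 replicates 3 and 4 the wide peak ended inside the gene, and a separate peak of 800 and 704 bp stood at the site of the E0 peak.

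As a share of the Arc gene interval, peaks covered 6.55 ± 4.56% in E0 (SD, n = 4) and 94.6 ± 9.75% in E1 (SD, n = 4). The 4 E1 libraries ranged from 80.0 to 100% and the E0 libraries from 2.07 to 12.9%, so the groups did not overlap. Over all 10 kb tiles of the genome with a peak in either group, 6.71% had every E1 library above every E0 library. Such tiles are longer than the Arc interval of 4001 bp and were placed without regard to genes. Wide peaks over Arc also stood in E1 lists with few wide peaks. In E1 replicates 3 and 4, 0.0865% and 0.0624% of all peaks were over 2000 bp, as the plot of peak width against the list's share of wide peaks shows. E0 replicates 1 and 2 had 0.576% and 1.08%, and E0 replicates 3 and 4 had 0.0488% and 0.116%. E4 replicate 1 had 1.72% and a widest Arc peak of 5394 bp. The other E4 libraries had at most 0.0545% and widest Arc peaks of 441 to 760 bp. The part that list width plays at Arc was not tested. Among the 17630 merged regions with a peak in all 8 E0 and E1 libraries, the ratio of mean widest peak in E1 to E0 had a median of 1.04 and a 99th percentile of 2.05. It was 8.43 at Arc, and no other region reached that value. Arc was chosen with such widths known, so its rank is a description and carries no test.

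**Figure D1:**
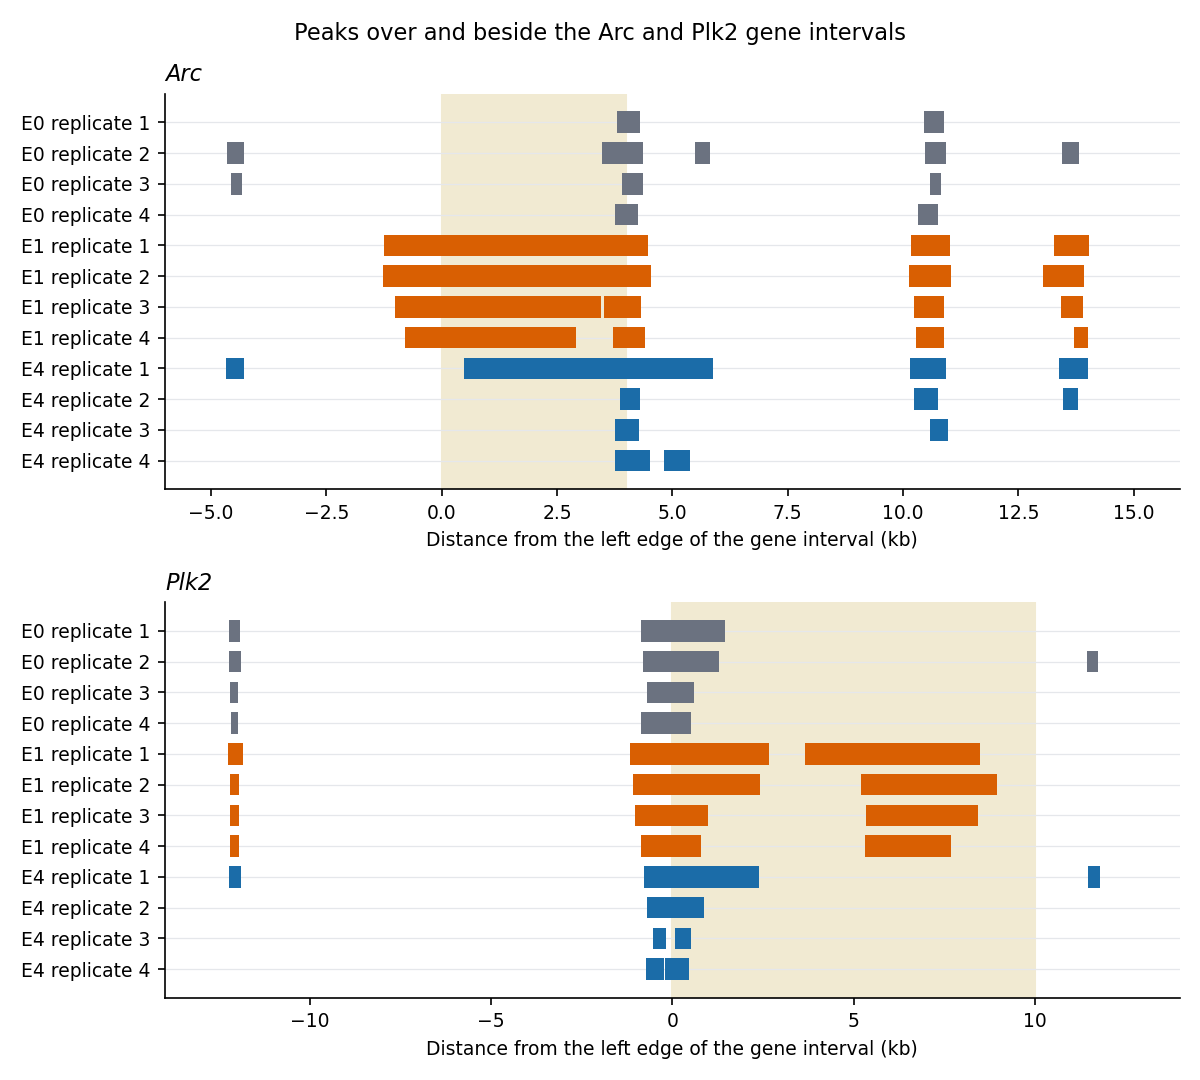
Peaks over and beside the gene intervals of Arc (top) and Plk2 (bottom), 1 row for each library, with distance from the left edge of the gene interval in kb on the horizontal axis and the interval shaded. Each block is 1 peak: E1 peaks fill all or most of the Arc interval, and a second E1 peak inside the Plk2 interval has no counterpart in E0 or E4.

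**Figure D2:**
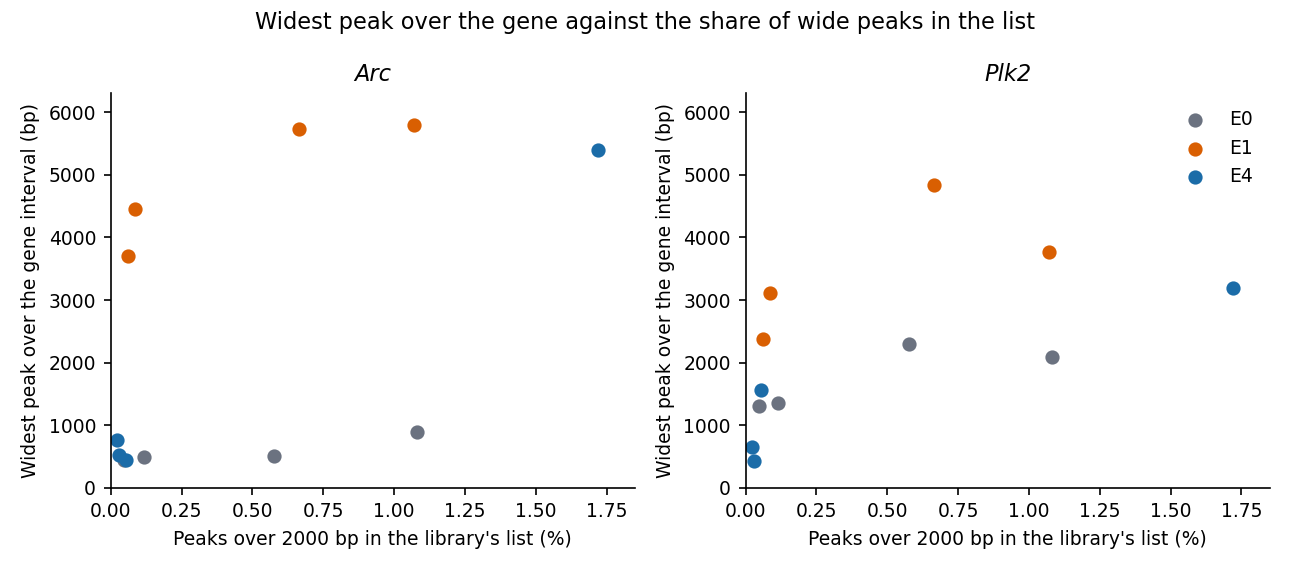
Width of the widest peak over the Arc (left) and Plk2 (right) gene interval in bp against the percentage of all peaks of the same list that are over 2000 bp, 1 point for each library. At Arc, E1 points run from 3701 to 5800 bp and E0 points from 446 to 890 bp, over a similar range of shares of wide peaks. E4 replicate 1 lies at 5394 bp and 1.72%, and the other E4 points at 441 to 760 bp and at most 0.0545%. The part that list width plays was not tested.

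At E4 the Arc gene was divided between libraries. E4 replicates 2, 3 and 4 had a short peak at the E0 site, of 441, 518 and 760 bp, and 3.4, 6.05 and 6.05% of the interval was covered. E4 replicate 1 had a peak of 5394 bp that covered 88.0% of the interval. That peak began 479 bp inside the interval and ran to 5872 bp, so it reached further to the right and less far to the left than any of the 4 E1 peaks. The E4 mean of 25.9 ± 41.4% (SD, n = 4) therefore describes none of the 4 libraries, and without replicate 1 it was 5.17%.

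The widest peak over the Arc interval scored in the upper part of each list, though wider was not higher. The score is the authors' own value and its scale is not given, so it serves here only to rank peaks within a list. The short E0 peak stood at percentiles 80.5, 85.0, 85.3 and 80.1 of its list, and the wide E1 peak at percentiles 69.0, 66.2, 82.8 and 78.7. The separate short peaks of E1 replicates 3 and 4, at the site of the E0 peak, ranked low, at percentiles 13.8 and 31.2. When every list is reduced to its 24426 best peaks, the length of the shortest, the wide peaks of E1 replicates 1 and 2 drop out. The mean over the interval becomes 1587 bp in E1 and 262 bp in E0, and the groups overlap. E1 replicates 3 and 4 keep their wide peaks under that rule.

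Peaks of the 12 libraries that share at least 1 bp were merged into regions, and the Arc window held 16, of which 1 covers the gene. No Arc region was found in each E1 list while missing from each E0 list. The one nearest to the start of Arc, on chromosome 15 from 74509132 to 74510038, was present in all E0 and E1 libraries and 3 E4 libraries. Its peaks were 440, 461, 233 and 432 bp wide in E0 and 846, 907, 660 and 619 bp in E1, so every E1 peak was wider. This region and the Arc gene itself were the 2 of 10 regions in the windows, among those found in all 8 libraries, with every E1 peak wider than every E0 peak, which held for 2.51% of such regions in the genome. The next region, from 74512029 to 74513022, had a peak in all 4 E1 libraries, in E0 replicate 2 and in E4 replicates 1 and 2.

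Plk2 had a second pattern: an extra wide peak, beside a start peak that was wider in E1 by the mean. At the left end of its gene interval, where Plk2 starts, every library had a peak. It measured 2305, 2083, 1310 and 1361 bp in E0 and 3824, 3492, 2021 and 1662 bp in E1. These ranges overlap, and the mean widths stood in a ratio of 1.56. The 95th percentile of that ratio was 1.58 among the 17630 regions with a peak in all 8 E0 and E1 libraries. In E4 the widest peak there was 3190 bp in replicate 1 and 1563, 427 and 653 bp in the others.

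Further into the Plk2 interval, on chromosome 13 from 111188658 to 111193955, all 4 E1 libraries had a peak and no E0 or E4 library had one. The E1 peaks were 4843, 3763, 3111 and 2378 bp wide in replicates 1 to 4. In replicates 2, 3 and 4 they began 5193, 5331 and 5314 bp from the left edge, and in replicate 1 the peak began at 3658 bp. Their right ends lay between 7691 and 8955 bp. Plk2 measures 5801 bp in GRCm38 and starts at the left end, so a large part of these peaks may lie past the gene. The gene's end was not placed in mm9. E4 replicate 1, with the longest list of all and the largest share of wide peaks, had no peak in this stretch. The score percentiles of the E1 peaks were 76.5, 83.3, 95.7 and 98.0.

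This Plk2 stretch was 1 of 5 regions in the 4 windows, and of 5579 in the genome, with a peak in each E1 list and no E0 list. Such regions were 3.71% of all regions with a peak in either group. At 5298 bp it was the widest of the 5579, whose median was 551 bp. That width is the span of the merged peaks, and the widest peak of a single library there was 4843 bp. The genes were chosen with peak widths known, so this rank carries no test. The Plk2 stretch was also the only region in the windows with a peak in all 4 E1 and no E4 library, a pattern of 0.506% of regions. There too, it was the widest, of 765 regions. Reducing all lists to 24426 peaks, or keeping scores of at least 100, left it present in 4 E1 libraries and in none of the others. A further setting counted a library only where its peaks covered at least 50% of the region. There E1 replicate 4 dropped out, with 2378 of 5298 bp under its peak, so the stretch no longer met either pattern.

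Together, the peaks covered 9.62 ± 4.73% of the Plk2 gene interval in E0, 52.4 ± 19.6% in E1 and 10.4 ± 9.30% in E4 (SD, n = 4 each). E1 libraries ranged from 31.8 to 75.1%, above all E0 libraries (5.08 to 14.5%) and all E4 libraries (4.27 to 24.0%). Plk2 was the only one of the 4 gene intervals in which every E1 library lay above every E4 library with E4 replicate 1 included, which held for 1.16% of 10 kb tiles. Those tiles are close in length to the Plk2 interval but not to the others, and were placed without regard to genes. Without E4 replicate 1 its E4 mean was 5.86%.

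Of the 11 regions in the Plk2 window, 2 overlap the gene interval. Among those beyond it, the one on chromosome 13 from 111225892 to 111226691 was also present in all 4 E1 libraries and no E0 library, with peaks of 439, 302, 800 and 257 bp. E4 replicate 1 had a peak of 317 bp there. With scores of at least 100 it was found in 3 E1 libraries, and in lists of 24426 peaks in 1. The regions from 111158683 to 111159297, 111172753 to 111173142 and 111228774 to 111229249 were present in all 8 E0 and E1 libraries, with ratios of mean peak width of 0.815, 1.06 and 1.09.

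Homer1 differed in small regions inside a long gene. Its start carried a peak near the top of every list, at percentiles 99 to 99.8 in the E0 and E1 libraries and 94.8 to 99.8 in E4. The peak measured 1784, 2143, 1073 and 1313 bp in E0 and 1653, 2102, 1652 and 1512 bp in E1. The groups overlapped fully, with a ratio of mean widths of 1.10. In E4 it measured 1894, 1155, 762 and 821 bp. The Homer1 start was thus a strong peak in unstimulated tissue too.

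Homer1 held 3 of the 5 regions found in each E1 list and no E0 list. The first lay outside the gene interval, from -2888 to -2106 bp, on chromosome 13 from 94070112 to 94070894, with E1 peaks of 715, 531, 486 and 411 bp. It ranked low, at a mean score percentile of 17.6, and no E1 library kept it with scores of at least 100. E4 replicates 1 and 2 had it too, and 1 of them kept it at that score.

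The second lay inside the gene, from 94100602 to 94101239, with E1 peaks of 638, 482, 282 and 287 bp. Its peaks stood at score percentiles 67.6, 77.6, 69.1 and 80.2 of the E1 lists. E4 replicate 1 alone among the E4 libraries had it, at percentile 28.6. The third, from 94138676 to 94142205, lay 65676 to 69205 bp into the interval. There E1 replicate 1 had a single peak of 3530 bp. E1 replicates 2 and 3 had a pair of peaks each, of 527 and 554 bp and of 472 and 503 bp, and replicate 4 had 1 peak of 448 bp. E4 replicate 1 had a peak of 355 bp. The region's full width, second among the 5579, thus comes from 1 library, while all 4 E1 libraries shared a short stretch of its left part. With scores of at least 100 both inner regions stayed in 4 E1 libraries and no E0 library, and in lists of 24426 peaks they were found in 3 and 2 E1 libraries and in no E0 library.

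The reverse pattern was weaker at Homer1. A region from 94157416 to 94157755 had peaks of 305, 306 and 245 bp in E0 replicates 1, 2 and 4 and none in any E1 or E4 library. It was absent from E0 replicate 3, the shortest E0 list. In none of the 4 windows did a region occur in each E0 list and in no list of E1, or in no list of E4. The share of all regions with either pattern was not computed, so this count has no measure beside it. Peaks covered 2.09 ± 0.763% of the Homer1 gene interval in E0, 4.34 ± 2.13% in E1 and 1.48 ± 1.19% in E4 (SD, n = 4 each), and the groups overlapped.

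Of the 16 regions in the Homer1 window, 13 overlap the gene interval, and the remaining ones there were small and thinly shared. The region from 94102401 to 94103067 had peaks in E1 replicates 1 and 3 and E4 replicate 1, and the one from 94082928 to 94083370 in E1 replicates 1 and 4. The region from 94158513 to 94158794 was found in E1 replicate 3 and E4 replicate 1, and the one from 94169638 to 94170084 in E0 replicates 1 and 2 and E1 replicate 3. The others were each in 1 library, with starts at 94086277, 94105425 and 94153131 in E0 and at 94089681 and 94115960 in E1. Their widths ran from 161 to 777 bp.

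**Figure D3:**
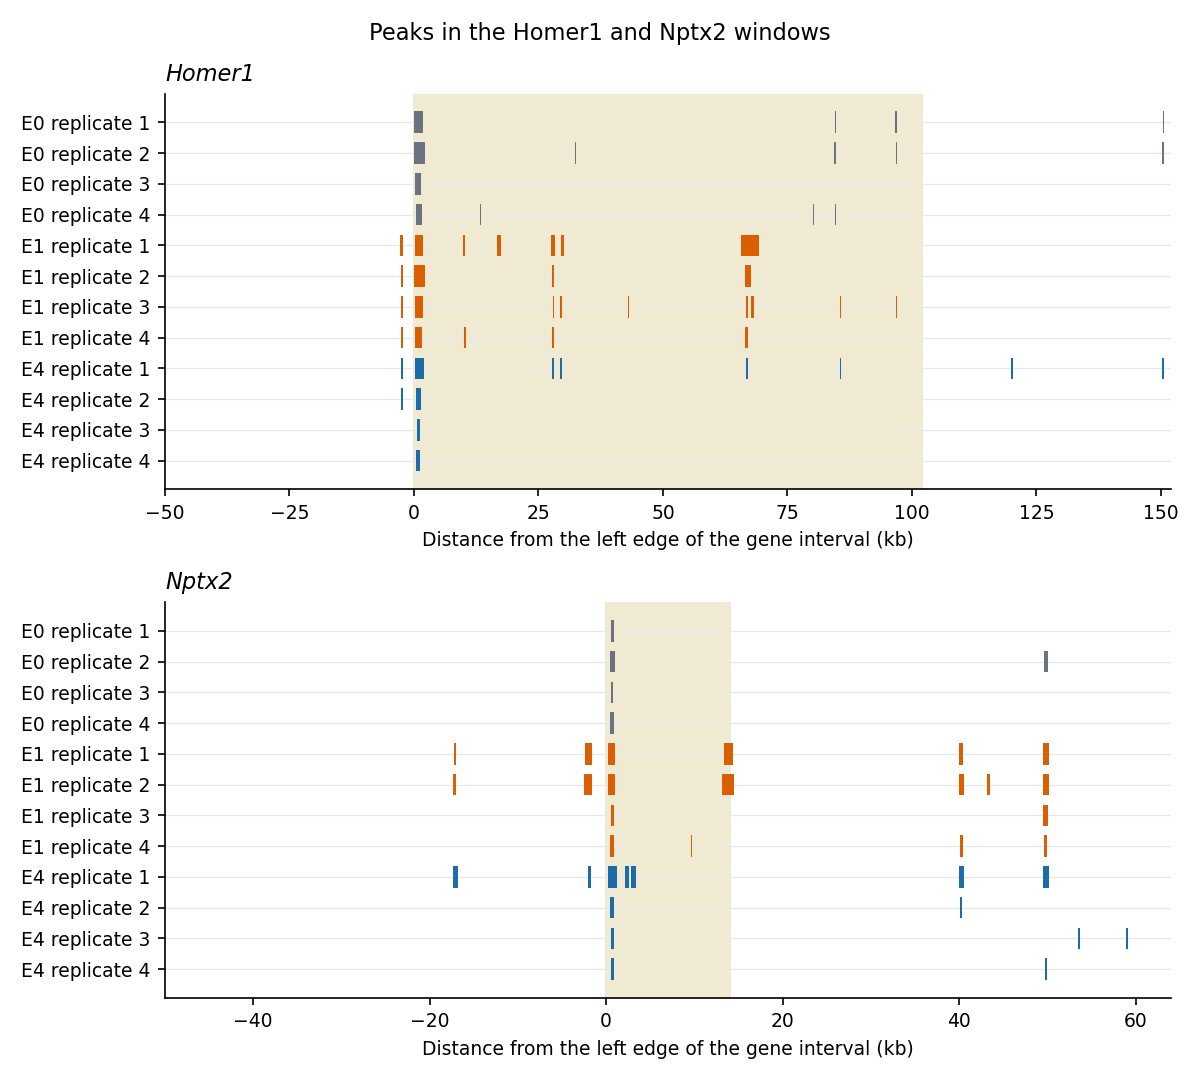
Peaks in the Homer1 (top) and Nptx2 (bottom) windows, 1 row for each library, with distance from the left edge of the shaded gene interval in kb on the horizontal axis. At Homer1 the E1 rows share peaks near 28 and 67 kb that no E0 row has, and at Nptx2 the E0 rows hold little beyond the peak at the start.

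Nptx2 had the least accessible window before stimulation. E0 replicates 1, 3 and 4 had a single peak in the whole window, at the left end of the gene interval where Nptx2 starts, and E0 replicate 2 had 1 more. The peak at the start measured 347, 545, 261 and 433 bp in E0. In E1 it measured 881, 902, 419 and 409 bp, and in E4 995, 387, 375 and 418 bp. E1 replicates 1 and 2 and E4 replicate 1 were wide, and all other libraries were within the E0 range.

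E1 libraries held 6, 7, 2 and 4 peaks in the Nptx2 window. A region near its right side, on chromosome 5 from 145355444 to 145356158, had peaks of 685, 706, 671 and 292 bp in the E1 libraries. E0 replicate 2 had a peak of 387 bp there, so it was not exclusive to E1, and E4 replicates 1 and 4 had one as well. A region from 145345941 to 145346537 had a peak in E1 replicates 1, 2 and 4 and in E4 replicates 1 and 2, and in no E0 library. At the right end of the gene interval, E1 replicates 1 and 2 alone had peaks of 1043 and 1302 bp, from 145319170 to 145320471. The interval is longer than the gene (11592 bp in GRCm38), so these peaks may lie past the gene's end. Of the remaining regions over the Nptx2 interval, those starting at 145308136 and 145308851 were found in E4 replicate 1 alone, and the one starting at 145315602 in E1 replicate 4 alone. E1 replicates 1 and 2 thus carried most of the difference at Nptx2, and they are also the E1 libraries that cover the most sequence, at 39.8 and 44.5 Mb against 27.0 and 22.7 Mb. The part that covered length plays at Nptx2 was not tested.

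**Figure D4:**
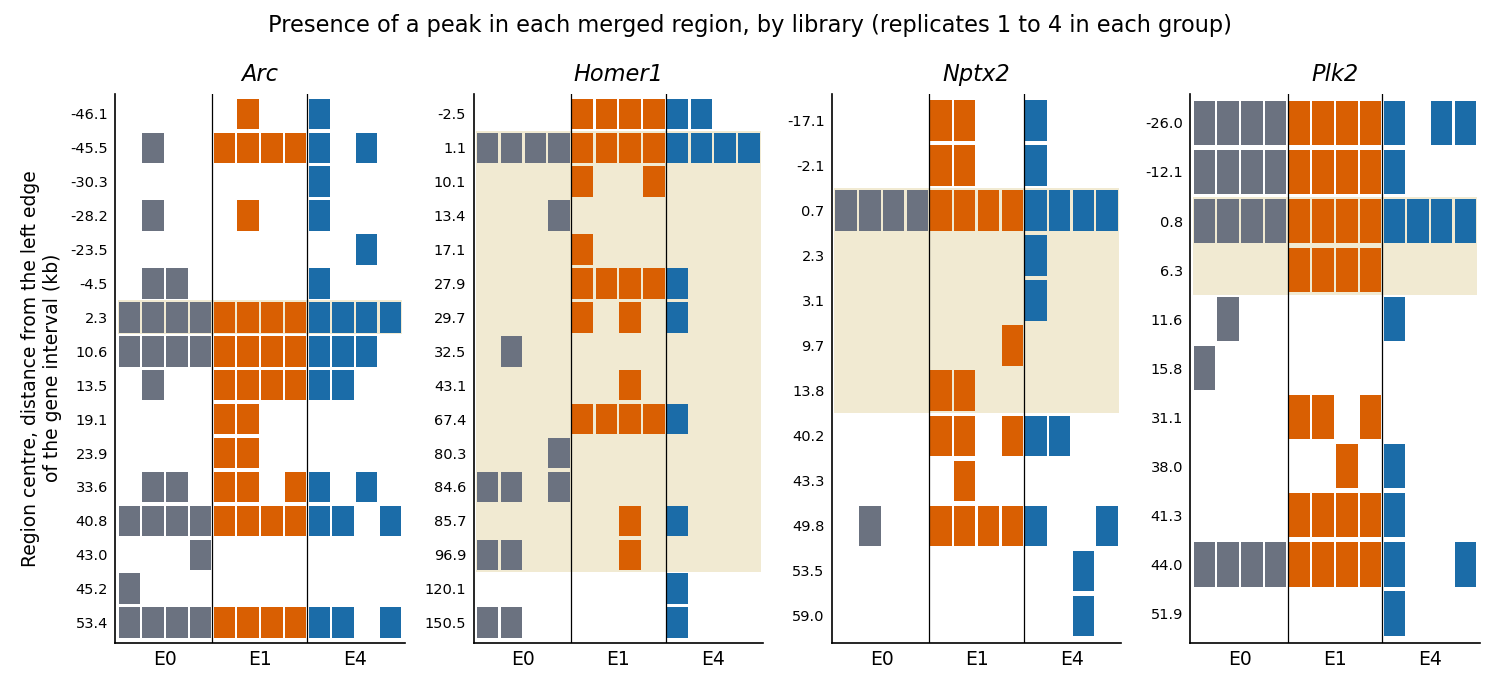
Presence of a peak in each of the 55 merged regions of the 4 windows (rows, by the distance of the region's centre from the left edge of the gene interval in kb) in each library (columns, replicates 1 to 4 within each group), with regions over the gene interval shaded. A filled block means a peak was called, and 4 regions, 1 in each window, are filled in all 12 libraries.

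Over whole windows, E1 was higher than E0 at all 4 genes by the mean, and at Arc, Nptx2 and Plk2 without overlap. At Arc, peaks covered 2932, 5582, 2197 and 2091 bp in E0 and 11216, 11659, 7687 and 6442 bp in E1. At Nptx2 they covered 347, 932, 261 and 433 bp in E0 and 4200, 5061, 1090 and 1137 bp in E1. At Plk2 they covered 3456, 3619, 2086 and 2314 bp in E0 and 10618, 8999, 6905 and 5411 bp in E1. The lowest E1 value exceeded the highest E0 value in each, by the smallest margin at Nptx2. At Homer1 they covered 2818, 3090, 1073 and 2072 bp in E0 and 8241, 4196, 4531 and 2899 bp in E1. Here E1 replicate 4 lay between E0 replicates 1 and 2. In the genome, 8.14% of 100 kb tiles with a peak in either group had every E1 library above every E0 library.

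The means differed by 6050 bp at Arc (ratio 2.89), 2704 bp at Homer1 (ratio 2.19), 2379 bp at Nptx2 (ratio 5.82) and 5114 bp at Plk2 (ratio 2.78), while all peaks of the genome together covered 1.32 times as much in E1 as in E0. Leaving out E1 replicate 1 brought the Homer1 difference to 1612 bp, and leaving out E0 replicate 2 or E1 replicate 4 removed its overlap. In lists of 24426 peaks the differences were 1812 bp at Arc, 1332 bp at Homer1, 1045 bp at Nptx2 and 4383 bp at Plk2, and only the Plk2 groups did not overlap. With scores of at least 100, and with flanks of 10 kb, the Nptx2 groups overlapped (differences of 2262 and 1281 bp) and the Homer1 groups did not (1742 and 2833 bp). The share of tiles whose groups separate was not computed for these lists, scores and flanks, or with a library left out.

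**Figure D5:**
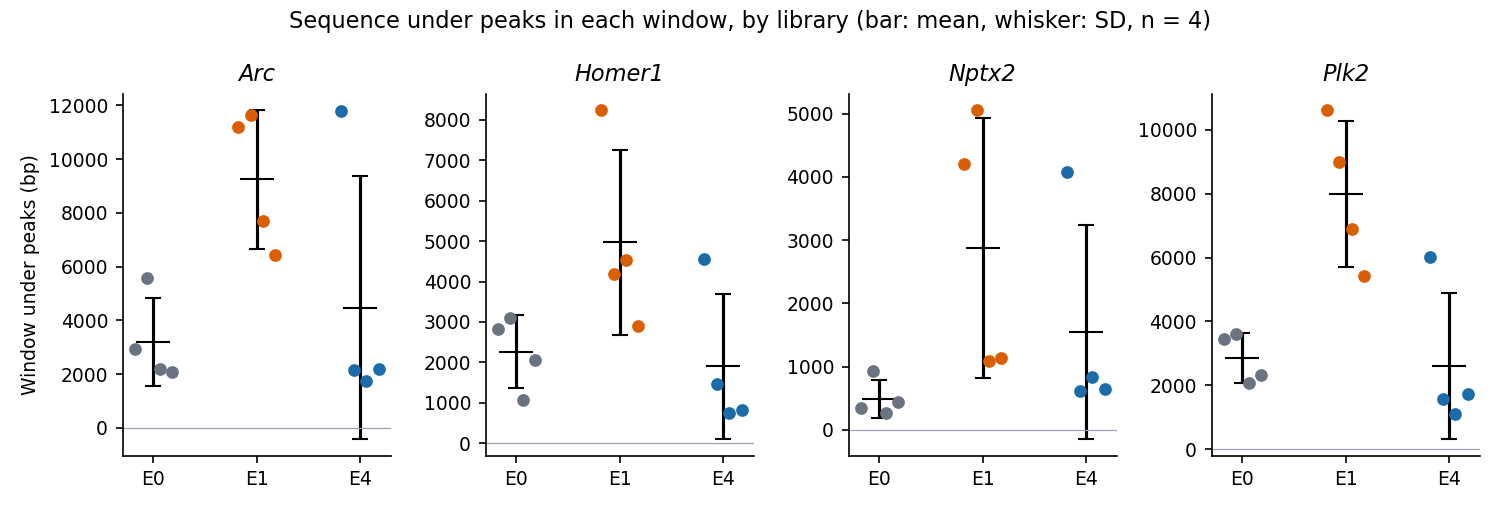
Base pairs of each window that lie under peaks, 1 panel for each gene with its own vertical axis, points for the 4 libraries of each group, horizontal bars for the mean and whiskers for the SD. E1 points lie above E0 points at Arc, Nptx2 and Plk2, and in every panel 1 E4 point, replicate 1, stands above the other three.

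In E4, replicate 1 lay above the other E4 libraries at every gene. Leaving out 1 E4 library changed the sign of E4 minus E0 at Arc (replicate 1), Homer1 and Plk2 (other replicates), and not at Nptx2. Peaks covered 11806 bp of the Arc window in E4 replicate 1 and 2156, 1735 and 2193 bp in replicates 2 to 4. For Homer1 the values were 4560 bp and 1468, 762 and 821 bp. For Nptx2 they were 4086 bp and 610, 841 and 646 bp, and for Plk2 6006 bp and 1563, 1099 and 1735 bp. E4 minus E0 was 1272 bp at Arc, -360 bp at Homer1, 1052 bp at Nptx2 and -268 bp at Plk2, with overlap at each gene. Without E4 replicate 1 these became -1172, -1246, 206 and -1403 bp, and at Plk2 E4 replicates 2 to 4 lay below all E0 libraries, as in 26.2% of 100 kb tiles with those 7 libraries. The Plk2 ratio of E4 to E0 was 0.907 with replicate 1 and 0.511 without it, against 0.889 and 0.401 for all peaks of the genome. The E4 mean at Homer1 was 19.8 bp above the E0 mean without E4 replicate 3, and that at Plk2 233 bp above it. At Nptx2, leaving out E0 replicate 2, the longest E0 list, put all E4 libraries above the remaining E0 libraries, with a difference of 1199 bp. The share of tiles that do so without that library was not computed.

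E4 minus E1 was -4778 bp at Arc, -3064 bp at Homer1, -1326 bp at Nptx2 and -5382 bp at Plk2. The groups overlapped at all 4 genes, each time through E4 replicate 1. Without it the differences were -7223, -3950, -2173 and -6518 bp and no window overlapped, nor did any gene interval, at Nptx2 by 418 against 419 bp. That outcome is common: without E4 replicate 1, 57.6% of 100 kb tiles and 23.8% of 10 kb tiles had every E1 library above every E4 library. The 10 kb tiles are close in length to the Plk2 interval alone. At Plk2, leaving out E1 replicate 4 also ended the overlap, with a difference of -6240 bp. The share of tiles without that library was not computed. Leaving out E1 replicate 2 brought the Nptx2 difference to -597 bp, and leaving out E1 replicate 1 the Homer1 difference to -1973 bp. With all libraries kept, lists cut to the length of the shortest ended the overlap at Homer1 (-1829 bp) and Plk2 (-4775 bp). The Arc and Nptx2 groups still overlapped in those lists (-1839 and -280 bp). Flanks of 10 kb ended the overlap at Plk2 (-4521 bp) and not at the other genes. With scores of at least 100 the groups overlapped at every gene. The share of tiles whose groups separate was not computed for these settings.

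Each value was also divided by the library's total covered length. The scaled values still moved with list length: in E0 the Plk2 value was 158 in the library covering 13.2 Mb and 88.7 in the one covering 40.8 Mb, and E4 replicate 3, with 7.48 Mb, had the highest E4 values at Arc (232) and Nptx2 (112). On that scale Arc had 130 ± 28.4 bp per Mb covered in E0, 278 ± 10.9 in E1 and 204 ± 26.9 in E4 (SD, n = 4 each). The E1 libraries ran from 262 to 285, E4 from 169 to 232 and E0 from 99.6 to 166, so the 3 groups did not overlap and E4 replicate 1, at 198, sat among its group. Plk2 had 124 ± 28.9 in E0, 241 ± 28.5 in E1 and 135 ± 29.8 in E4 (SD, n = 4 each), with E1 above both other groups and E4 overlapping E0. Nptx2 had 19.7 ± 5.62 in E0, 77.6 ± 37.8 in E1 and 73.0 ± 27.5 in E4 (SD, n = 4 each), with both E1 and E4 above E0 and overlapping each other. Homer1 had 92.5 ± 18.4, 149 ± 48.9 and 93.5 ± 18.2 (SD, n = 4 each), with overlap throughout.

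On the same scale, 7.72% of 100 kb tiles had every E1 library above every E0 library, which held for Arc, Nptx2 and Plk2. E4 was above E0 in 2.28% of tiles, and in the Arc and Nptx2 windows. With all 12 libraries, that separation was found on the scaled values alone: in lists of 24426 peaks E4 minus E0 was -27 bp at Arc, -496 bp at Homer1, 765 bp at Nptx2 and -392 bp at Plk2, with overlap at each gene. E1 was above E4 in 5.09% of tiles, and in the Arc and Plk2 windows. The comparisons of E1 and of E4 with E0 share the same 4 E0 libraries.

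Over all 4 windows there were 55 regions, of which 4 were found in all 12 libraries and 18 in 1 library alone. The 4 shared by all were the regions at the start of each gene. Leaving out E0 replicate 2 brought the regions found in each E1 list and no E0 list from 5 to 8, and the share over all regions from 3.71 to 5.51%. Leaving out E4 replicate 1 brought those found in each E1 list and no E4 list from 1 to 5, and the share over all regions from 0.506 to 7%. Libraries held 13 to 22 peaks in the 4 windows together in E0, 24 to 32 in E1, and 35, 10, 12 and 11 in E4 replicates 1 to 4.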

How the data were processed

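Peak lists of 12 ATAC-seq libraries, 1 per mouse, were used as deposited, with a position and a score for each peak. Per the submitters' processing notes, reads were aligned with Bowtie2 to mm9. Peak names carry the MACS prefix, per the file contents. The deposited score is the authors' value, on an unstated scale, so it only ranks and filters peaks within a list. The caller's version and threshold, any control, read shifting for the transposase and removal of duplicates were not given in the sources used here. An unshifted read displaces an edge only slightly, while a deeper library can give more and wider peaks.

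Peaks off chromosomes 1 to 19 and X were left out (9 to 43 per library). Covered bp were summed within each window. Percentiles are ranks within a list. Lists were merged where they shared 1 bp into 170710 regions, as bedtools 2.31.1 gave too, and the functions were tested on simulated data. At most 0.0284% of a list's intervals recurred exactly in another. Python 3.11.15, pandas 2.3.3 and matplotlib 3.10.9 were used.

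The members, lists and windows were chosen with earlier results of these data known. Regions were named when they overlapped a gene interval, had a peak in all libraries of one group and none of another, or in all 12. The regions beside Arc, Nptx2, Homer1 and Plk2 that meet none of these, the tiles, the core TGACG, the peak widths and the 2000 bp limit were chosen after the values were seen. Alternatives were lists of equal length, scores of at least 100, scaled values, other flanks, merging over 100 bp, 50% coverage and leaving out each library.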

Additional observations from a re-analysis of the deposited data

Results flagged for a closer look

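Groups of 4 libraries were searched for a single value far from the rest, by Dixon's criterion (the gap to the nearest value as a share of the range), for 3 measures in each window. Of 36 groups, 10 were picked out. Chance gives about 1 in 20 for independent groups without ties, and that rate cannot be read against these 10, since the measures are nested and come from the same libraries. E4 replicate 1 made up 8 of the 10. At Arc it covered 11806 bp of the window, 3522 bp of the gene interval and held 12 peaks, against 1735 to 2193 bp, 136 to 242 bp and 4 to 5 peaks in the other E4 libraries. At Homer1 it covered 3316 bp of the gene interval (762 to 1155 bp in the others) and held 8 peaks (1 to 2). At Nptx2 it covered 4086 bp of the window (610 to 841 bp) and 1943 bp of the gene interval (375 to 418 bp). At Plk2 it covered 6006 bp of the window (1099 to 1735 bp). This library's list is the longest of the 12, and the part of list length in these values was not tested.

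The other two are E1 replicate 4, which covered 3199 bp of the Arc gene interval against 3934 to 4001 bp in the other E1 libraries, and E0 replicate 2, with 2 peaks in the Nptx2 window against 1 in each other E0 library, a tie that makes any differing count stand out.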

How the results depend on the processing

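No paired analysis was possible because the values of the windows are descriptions that come from no test, and no label ties a replicate number to a litter, batch or day across groups. The E1 minus E0 difference in covered bp kept its sign at all 4 genes in equal-length lists, with scores of at least 100, on scaled values, with other flanks and without each library in turn. Merging over 100 bp and 50% coverage apply to the region counts alone. The difference shifted by more than the spread between libraries at Arc in lists of 24426 peaks (1812 bp) and over the gene interval alone (3522 bp), at Nptx2 over the gene interval alone (666 bp), and at Plk2 on the scaled values (3172 bp, and -2863 bp for E4 minus E1). Regions with a peak in all E1 and no E0 library numbered 5, and 2 in lists of 24426 peaks and 3 with scores of at least 100. The shorter lists kept 1 of the 5, and the scores kept 3. With 50% of the region covered, a library counts only where its peaks reach that share, and the number was 2. The Arc gene region is among those 2, though every E0 list had a shorter peak there. Regions in all E0 and no E1 library numbered 0, and 1 in lists of 24426 peaks. Regions in all E1 and no E4 library numbered 1, and 2 with scores of at least 100 and 0 with 50% covered. The 1 region lost at 50% is the wide Plk2 stretch, of which E1 replicate 4 covered less than that share. How often all regions of the genome show these patterns was not computed under these settings, nor for patterns with all E0 libraries.

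Leaving out 1 library at a time, E1 minus E0 ran from 5248 to 6987 bp at Arc, 1612 to 3393 bp at Homer1, 1649 to 2973 bp at Nptx2 and 4236 to 5972 bp at Plk2. E4 minus E0 ran from -1172 to 2184 bp, -1246 to 19.8 bp, 206 to 1364 bp and -1403 to 233 bp at the same genes. E4 minus E1 ran from -7223 to -3866 bp, -3950 to -1973 bp, -2173 to -597 bp and -6518 to -4504 bp. Regions in all E1 and no E0 library ran from 5 to 8 (8 without E0 replicate 2) and the opposite from 0 to 1. Regions in all E0 and no E4 library ran from 0 to 1, and those in all E1 and no E4 library from 1 to 5 (5 without E4 replicate 1). With a library left out, the share over all regions was computed only for the counts of 8 and 5. Read depth is not known, so no limit from depth can be given.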
